A study of Homo sapiens with 11 samples.

Results

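The S100 genes described here are S100A2, S100A4, S100A6, S100A8, S100A9, S100A10, S100A11, S100A14, S100A16 and S100P, 10 of the 25590 genes in the tables of human reads. They were chosen by name from the family of S100 calcium-binding proteins, of which the tables list 21, and were followed in all 11 tumours. The tumours had grown under the skin of athymic nude mice from PC-3 cells, a line of human prostate carcinoma. The mice were male and 8 weeks old when the cells were injected, and treatment began 7 days later. In 5 tumours the mouse had received PBS, and in 6 it had received intraperitoneal A2M*, the transformed, receptor-binding form of alpha-2-macroglobulin, at 5.6 mg per injection. The labels write A2M for this group, and tumours are named here by the group label and tumour number, such as PBS-123 and A2M-131. All tumours come from 1 cell line in hosts that lack mature T cells, and the labels do not say that each tumour came from another mouse, so p-values measure the spread between these tumours.

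S100 proteins are small cytosolic proteins with paired EF-hands, the loops that hold calcium. Most form dimers and, once calcium is bound, open a face that grips target proteins such as annexins, non-muscle myosin and ezrin. Several are also secreted and act on cell surface receptors, among them AGER (RAGE) and TLR4, and in carcinomas the family is known for links to motility, invasion and inflammation.

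The members ranged from one of the most abundant human transcripts to one ranked 6280 of 25590 genes by mean level. None passed the test between the treatments. Their levels are given in RPKM, the deposited reads per kilobase of exon scaled to the tumour's counted reads, which allows genes of different length to be set side by side. S100A6 had the highest mean over the 11 tumours, 2241 RPKM, and ranked 6 among all genes. S100A9 followed with 818.1 RPKM and S100A11 with 749.2 RPKM. S100A16 (590.2 RPKM), S100A2 (457.8 RPKM), S100A10 (450.6 RPKM) and S100A14 (228.2 RPKM) also lay among the 219 genes with the highest means. S100A4 (114.1 RPKM), S100P (99.26 RPKM) and S100A8 (10.84 RPKM) were lower, so that the means of the highest and the lowest member lay 207-fold apart. Together the members took between 0.373% and 0.474% of the counts of a tumour, and S100A6 alone took 0.153% on average over the tumours.

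The order of the levels was firm at some steps and not at others. S100A6 was above S100A9, S100A11 above S100A16, S100A10 above S100A14 and S100P above S100A8 in 11 of 11 tumours, with no overlap between the ranges of the neighbours. S100A9 was above S100A11 in 8 tumours and S100A16 above S100A2 in 10, and these ranges overlapped. S100A2 was above S100A10 in 5 tumours and S100A4 above S100P in 6, so neither pair had an order beyond its spread. S100A14 was above S100A4 in 11 of 11 tumours although their ranges over all tumours overlapped.

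**Figure D1:**
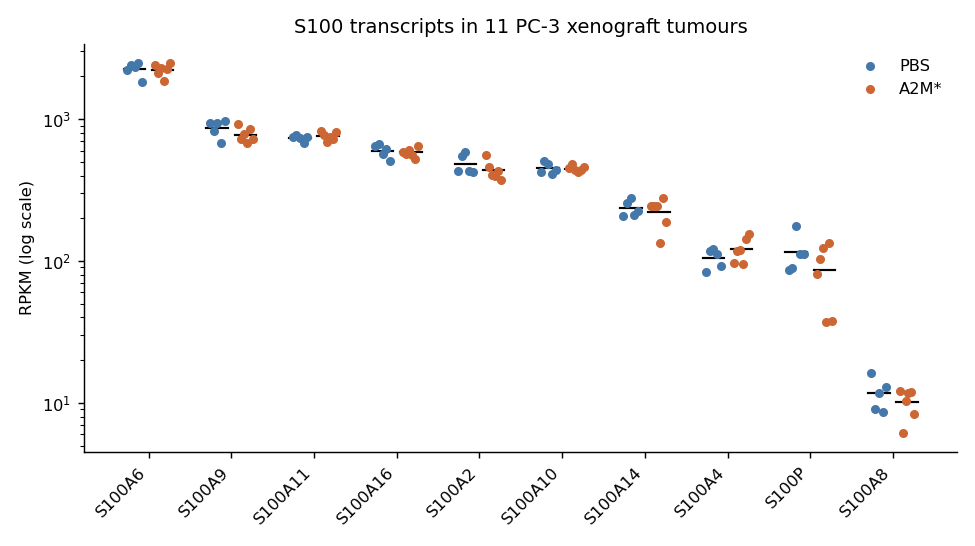
RPKM on a log scale (y axis) of the 10 S100 genes (x axis, by mean level) in each of 5 PBS tumours (blue points) and 6 A2M* tumours (orange points), with the group mean as a black line. The groups overlap for every gene, and S100P has the widest spread on this scale, from 36.99 to 176.8 RPKM.

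The sequences just before the start sites of 6 members are shown. They are those of the most abundant member (S100A6), the least abundant (S100A8) with its calprotectin partner (S100A9), the most variable (S100P), and S100A4 and S100A2, whose windows hold a match to one of the motifs below. Windows of S100A10, S100A11 and S100A16 hold a match as well but are not shown. The window of S100A14, which holds none, is not shown either. Each is the 100 bases upstream of a start site, read 5′ to 3′ on the gene's strand from the RefSeq promoter table of GRCh38.p14. For S100A8 and S100A2 the table has more than 1 start site, and the one shown was chosen after its match was seen. Capitals mark matches, on either strand, to TATAAA (the TATA box), TGANTCA (AP-1) or GGGCGG (the GC box).
S100A6, chr1:153535992-153536091, minus strand: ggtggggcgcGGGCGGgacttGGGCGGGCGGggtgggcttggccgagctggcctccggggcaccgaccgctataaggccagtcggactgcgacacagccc
S100A9, chr1:153357754-153357853, plus strand: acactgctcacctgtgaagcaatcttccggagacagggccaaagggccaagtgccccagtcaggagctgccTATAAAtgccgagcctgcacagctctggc
S100A8, chr1:153391074-153391173, minus strand: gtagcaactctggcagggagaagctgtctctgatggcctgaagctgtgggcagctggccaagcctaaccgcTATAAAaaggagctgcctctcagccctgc
S100A4, chr1:153545807-153545906, minus strand: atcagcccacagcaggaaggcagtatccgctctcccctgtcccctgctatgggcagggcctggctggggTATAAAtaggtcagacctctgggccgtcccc
S100P, chr4:6693778-6693877, plus strand: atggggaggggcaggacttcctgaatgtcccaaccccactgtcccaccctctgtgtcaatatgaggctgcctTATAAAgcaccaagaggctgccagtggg
S100A2, chr1:153565845-153565944, minus strand: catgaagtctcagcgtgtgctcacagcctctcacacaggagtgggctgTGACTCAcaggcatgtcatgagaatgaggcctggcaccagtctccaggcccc

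In the S100A6 stretch the last 2 GC box matches overlap each other. All 10 members matched the table, with 14 windows of 300 bases (250 before to 50 after the start site). TATAAA was found in 5 of the 14 windows, those of S100A4, S100A8, S100A9 and S100P, against 11.5% of all 35116 windows in the table. The S100A8 windows with a match overlap and hold the same TATAAA, so that 1 site is counted more than once. By gene, 4 of the 10 members had a match, but the share of all genes was not computed, and members have unequal numbers of windows. TGANTCA was found in 1 member window, that of S100A2, against 7.71% of all windows. GGGCGG was found in 5 windows, 1 each of S100A6, S100A9, S100A10, S100A11 and S100A16, against 45% of all windows. These matches describe letters only.

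The treatment groups were compared to ask whether A2M* changed the members' transcripts in the tumour cells. Counts were normalised by the TMM method and tested across all 16630 genes that passed a filter on low counts, with all 10 members among them, by edgeR's quasi-likelihood test. No member passed a Benjamini-Hochberg adjusted p of 0.01, against 0% of all genes tested, and the smallest adjusted p of a member was 0.746 (S100A9). At an unadjusted p under 0.05 there were also 0 of 10 members, against 7.08% of all genes (3.53% lower and 3.55% higher in A2M*), and DESeq2 and limma-voom called 0 members as well. The tumours of the groups overlapped for every member, where 0.325% of all genes lay apart with A2M* lower and 0.385% with A2M* higher.

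The fitted log2 fold changes of A2M* relative to PBS were below 0 for 8 members and above 0 for S100A4 and S100A11, against 50.6% of all genes below 0. Their median was -0.11, and that of all genes was -0.002. The tilt was not particular to the members, as 5 of 5 epithelial markers of PC-3 were below 0, with a median of -0.14. With library size as the only scaling the median of the members was -0.06 and that of all genes 0.04, again with 8 below and 2 above. The 95% intervals bound the size of these changes. For 8 of the 10 members the interval lay within 1.5-fold either way, and for 9 within 2-fold. For S100P it reached from 0.445 to 1.16 of the PBS level.

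**Figure D2:**
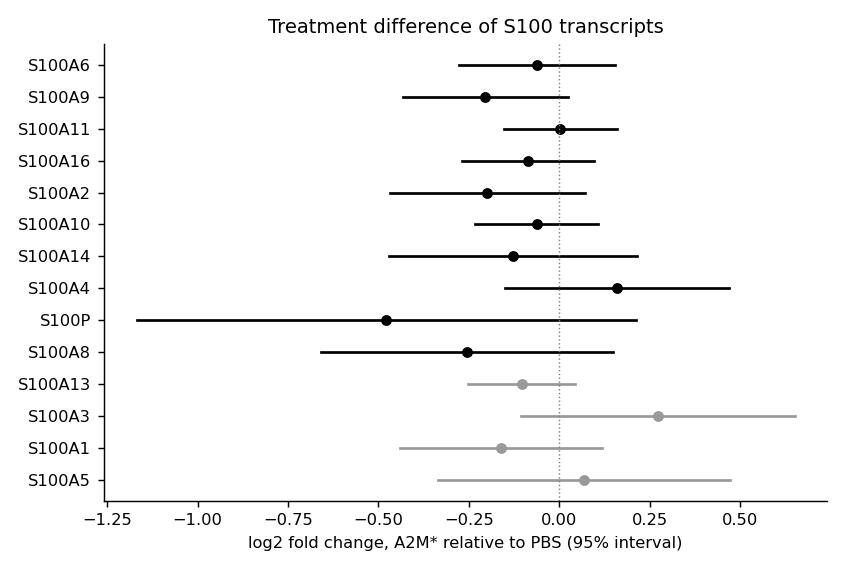
Log2 fold change of A2M* relative to PBS (x axis) with its 95% interval (horizontal lines) from edgeR for the 10 members (black, by mean level) and the 4 other S100 genes that were tested (grey). Every interval includes 0, and the widest among the members, that of S100P, runs from -1.17 to 0.21.

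S100A8 and S100A9 are the subunits of calprotectin, a secreted calcium and zinc binding heterodimer that is best known from neutrophils and monocytes and acts through TLR4 and AGER. S100A9 lies on chromosome 1 from 153330330 to 153333499 on the plus strand and S100A8 from 153362508 to 153363549 on the minus strand (GRCh37, the release behind the authors' hg19). S100A9 was at 934.2, 825.8, 934.5, 679.9 and 962.6 RPKM in tumours PBS-123 to PBS-127, and between 674.4 and 916.6 RPKM with a median of 751.7 in the A2M* tumours. The A2M* median lay below 4 of the 5 PBS tumours, while PBS-126 was near the A2M* minimum. The log2 fold change was -0.20 (SE 0.11, interval -0.43 to 0.02), with an adjusted p of 0.746 in edgeR's quasi-likelihood test with Benjamini-Hochberg adjustment. With a tumour left out the change ranged from -0.29 without PBS-126 (edgeR, unadjusted p = 0.00745, adjusted p = 0.454) to -0.16 without A2M-131 (edgeR, unadjusted p = 0.154).

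S100A8 was at 16.2, 9.02, 11.8, 8.66 and 13 RPKM in tumours PBS-123 to PBS-127, and between 6.09 and 12.03 RPKM with a median of 11.1 in the A2M* tumours. The highest value was that of PBS-123 and the lowest that of A2M-129, the library with the fewest counts. Behind these levels stood 54 to 253 counts, which leaves a counting error of 13.6% at the fewest. For S100A8 the log2 fold change was -0.25 (SE 0.19, interval -0.66 to 0.15; edgeR, Benjamini-Hochberg adjusted p = 0.842). Without PBS-123 it was -0.13 and without A2M-129 it was -0.16. It was -0.35 without PBS-126 and -0.33 without PBS-124.

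The partners were far from equal at the RNA level. S100A9 exceeded S100A8 per length by 77.2-fold (geometric mean), from 57.2-fold in A2M-131 to 118-fold in A2M-129. The log2 ratio of S100A8 to S100A9 was -6.24 ± 0.24 (SD, n = 5) in PBS and -6.30 ± 0.35 (SD, n = 6) in A2M* tumours, a difference of -0.06 (two-sided exact permutation test over 462 labelings, p = 0.771; adjusted over 2 ratios, p = 0.771). Its direction turned with group medians in place of means, to 0.05. RNA levels do not measure how much of the heterodimer was made.

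Since the calprotectin genes are known from myeloid cells, human myeloid markers are given beside them. Of the 12 markers 6 passed the filter and none reached an unadjusted p of 0.05. FCN1 had no count in any tumour, CSF3R, MPO and ELANE had at most 1 count, CD163 at most 2 and FCGR3B at most 5. The rest of the list was led by ITGB2 (22.0 RPKM), CD68 (13.1 RPKM) and LYZ (4.50 RPKM). Its summed level was 37.5 to 42.7 RPKM in PBS and 33.1 to 45.8 RPKM in A2M* tumours. The reads of the mouse host, which has myeloid cells of its own, were sorted out by the authors and are not analysed here. In bulk tumours fewer cells of a type and less RNA per cell cannot be told apart.

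S100A10, also called p11, does not bind calcium and sits in a heterotetramer with annexin A2 at the plasma membrane, where it binds plasminogen. It lies on chromosome 1 from 151955391 to 151966335. It was at 425.0, 509.1, 481.2, 411.5 and 440.1 RPKM in tumours PBS-123 to PBS-127, and between 421.8 and 480.9 RPKM with a median of 444.7 in the A2M* tumours. All A2M* tumours lay inside the PBS range, and the fitted log2 fold change was -0.06 (SE 0.08, interval -0.23 to 0.11; edgeR, Benjamini-Hochberg adjusted p = 0.916).

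ANXA2, the annexin partner, was at 799.5 RPKM on average and above S100A10 in every tumour, by 1.77-fold (geometric mean; 1.52-fold to 2.05-fold). The log2 ratio of S100A10 to ANXA2 was -0.86 ± 0.11 (SD, n = 5) in PBS and -0.80 ± 0.12 (SD, n = 6) in A2M* tumours. The difference of 0.06 did not pass a two-sided exact permutation test (p = 0.461; adjusted over 2 ratios, p = 0.771; the smallest p the labelings allow is 0.00216). It too turned with group medians, to -0.03.

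S100A11 (calgizzarin), which binds annexin A1, lies near S100A10 on chromosome 1 from 152004982 to 152020383 and was the steadiest member. It was at 747.0, 777.2, 732.1, 679.7 and 743.1 RPKM in tumours PBS-123 to PBS-127, and between 689.4 and 824.2 RPKM with a median of 759.5 in the A2M* tumours. The groups lay on top of each other, with a log2 fold change of 0.004 (SE 0.07, interval -0.15 to 0.16). Of its distinct runs of 50 bases, 2.0% also occur in a processed pseudogene, while the other 9 members share none with another annotated gene.

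S100A6 (calcyclin), a partner of CACYBP and annexin A11, lies from 153507075 to 153508720 on chromosome 1. It was at 2212, 2397, 2343, 2504 and 1824 RPKM in tumours PBS-123 to PBS-127, and between 1848 and 2481 RPKM with a median of 2274 in the A2M* tumours. One tumour of each group, PBS-127 and A2M-131, was below the rest. Between the groups, S100A6 differed by a log2 fold change of -0.06 (SE 0.10, interval -0.28 to 0.15). An annotated noncoding RNA overlaps exons of S100A6 on the opposite strand, and the library kit does not mark strand, so reads of the overlap cannot be told apart.

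S100A4 (metastasin), which binds the heavy chain of non-muscle myosin and is known for its link to metastasis, was the member with the largest change above 0. Its gene spans 153516089 to 153522612 on chromosome 1. It was at 84.1, 116.6, 121.0, 112.3 and 92.22 RPKM in tumours PBS-123 to PBS-127, and at 96.49, 118.2, 120.4, 94.74, 143.0 and 155.5 RPKM in tumours A2M-128 to A2M-132 and A2M-112. A2M-132 and A2M-112 lay above all PBS tumours and the other 4 within their range. On the log2 scale S100A4 was 0.16 higher in A2M* (SE 0.14, interval -0.15 to 0.47; edgeR, Benjamini-Hochberg adjusted p = 0.876). This change was 0.07 without A2M-112 and 0.08 without PBS-123, but 0.23 without A2M-131 and 0.22 without PBS-125.

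S100A2, known from basal epithelium and keratinocytes, where it is mainly nuclear, spans 153533584 to 153540366. It was at 431.7, 547.3, 587.6, 430.4 and 423.3 RPKM in tumours PBS-123 to PBS-127, and at 554.3, 462.4, 402.2, 396.1, 427.9 and 372.5 RPKM in tumours A2M-128 to A2M-132 and A2M-112. In both groups most tumours lay close to each other while PBS-124 and PBS-125 and A2M-128 were higher. The log2 fold change was -0.20 (SE 0.13, interval -0.47 to 0.07; edgeR, Benjamini-Hochberg adjusted p = 0.803), and with a tumour left out it ranged from -0.28 without A2M-128 (edgeR, unadjusted p = 0.0303, adjusted p = 0.694) to -0.11 without PBS-125 (edgeR, unadjusted p = 0.385). Of 6 epidermis markers, given because S100A2 is known from that tissue, KRT1, LOR and DSG1 had no count in any tumour. KRT10 was at 11.3 RPKM, KRTDAP at 0.449 RPKM and IVL at 0.276 RPKM.

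S100A16, a broadly expressed member, spans 153579362 to 153585621, next to S100A14, a member of epithelial cells, at 153586731 to 153589462. S100A16 was at 650.3, 665.0, 565.9, 610.5 and 507.7 RPKM in tumours PBS-123 to PBS-127, and between 522.8 and 647.8 RPKM with a median of 580.8 in the A2M* tumours. The groups overlapped over nearly their whole range, with a log2 fold change of -0.09 (SE 0.09, interval -0.27 to 0.10). S100A14 was at 208.1, 257.5, 275.9, 211.0 and 223.4 RPKM in tumours PBS-123 to PBS-127, and at 245.3, 243.4, 244.3, 133.9, 278.2 and 188.8 RPKM in tumours A2M-128 to A2M-132 and A2M-112. A2M-131 and A2M-112 were below every PBS tumour and A2M-132 was above every one in RPKM. S100A14 had a log2 fold change of -0.13 (SE 0.16, interval -0.47 to 0.21; edgeR, Benjamini-Hochberg adjusted p = 0.914). It was -0.01 without A2M-131, -0.06 without PBS-125, -0.08 without PBS-124 and -0.20 without A2M-132.

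S100P, which binds ezrin and, once secreted, AGER, is the member outside the chromosome 1 cluster, on chromosome 4 from 6695605 to 6698897. It was at 86.5, 89.21, 176.8, 112.6 and 111.1 RPKM in tumours PBS-123 to PBS-127. In tumours A2M-128 to A2M-132 and A2M-112 it was at 80.38, 103.9, 123.1, 36.99, 133.5 and 37.65 RPKM. PBS-125 was above all others, and A2M-131 and A2M-112 were far below all others, while the remaining tumours of both groups mixed. The means were 115 ± 36.5 RPKM (SD, n = 5) in PBS and 85.9 ± 41.8 RPKM (SD, n = 6) in A2M* tumours. Its log2 fold change was -0.48 (SE 0.32, interval -1.17 to 0.21; edgeR, Benjamini-Hochberg adjusted p = 0.822). Single tumours moved it in both directions. It was -0.26 without PBS-125, -0.32 without A2M-131 and -0.32 without A2M-112. It was -0.64 without A2M-132 and -0.60 without A2M-130.

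The members differed in how far the tumours of a group lay apart. The SD of log2 CPM (counts per 1000000, TMM-normalised) within the groups was 0.68 for S100P, larger than in 98.7% of all genes tested. It was 0.37 for S100A8, with its few counts, 0.32 for S100A14, 0.28 for S100A4 and 0.23 for S100A2, all above the median of 0.18 over all genes. S100A9 was near that median (0.19). S100A6 (0.17), S100A16 (0.14), S100A10 (0.13) and S100A11 (0.11) were below it. For S100P the highest tumour held 5.11 times the CPM of the lowest, against 1.22 times for S100A11. The counting error of S100P at its fewest counts, 508, was 4.44%, well under its spread.

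**Figure D3:**
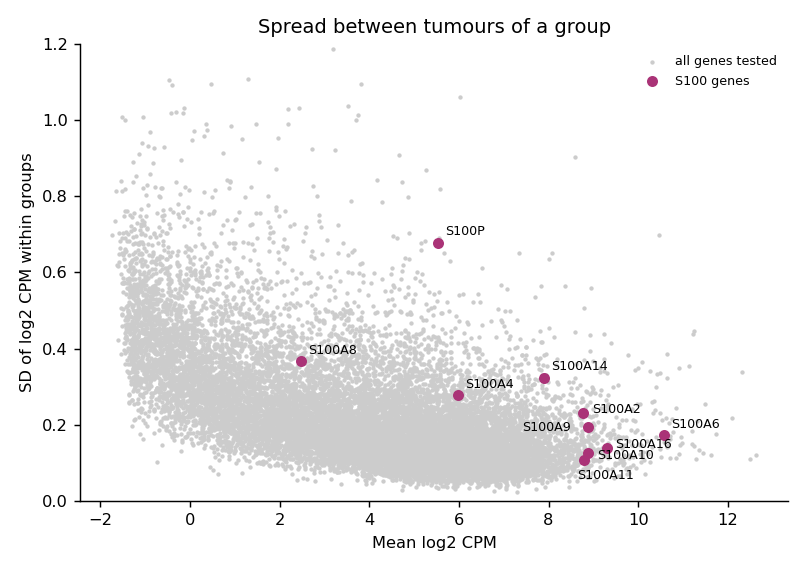
SD of log2 CPM within groups (y axis) against mean log2 CPM (x axis) for the 16630 genes tested (grey) and the 10 members (purple), with 13 genes above the plotted limit of 1.2. S100P stands at 0.68, above 98.7% of all genes tested, while S100A11 lies at 0.11.

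Members were also compared with each other over the tumours, by correlation of log2 CPM after subtracting the group means, with p-values from all 86400 exact pairings inside the groups. Of the 45 pairs 32 had a Pearson's r above 0 and 13 below, with a median of 0.27, and 0 pairs passed an adjusted p of 0.05 by either coefficient. S100A14 and S100P had the highest r, 0.83 (p = 0.00501, adjusted p = 0.175), with a Spearman's rho of 0.85 (p = 0.00245, adjusted p = 0.0688; exact permutation). Without the 2 tumours farthest from the median of S100A14 (A2M-131 and PBS-123) r was 0.74. By rho S100A2 and S100A14 came next with 0.80 (p = 0.00382, adjusted p = 0.0688; exact permutation), while their r was 0.61 (p = 0.0524, adjusted p = 0.337; exact permutation), or 0.56 without A2M-128 and PBS-125. By r S100A10 and S100A11 came next with r = 0.73 (p = 0.00777, adjusted p = 0.175) and rho = 0.77 (p = 0.00458, adjusted p = 0.0688; exact permutation), and r = 0.66 without PBS-124 and A2M-129. The calprotectin subunits had r = 0.58 (p = 0.0821, adjusted p = 0.41) and rho = 0.63 (p = 0.0566, adjusted p = 0.347; exact permutation). Their r fell to 0.36 without A2M-129 and PBS-126. S100A14 and S100A16, whose genes are adjacent, had r = 0.01. All pairs share libraries and their depth.

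**Figure D4:**
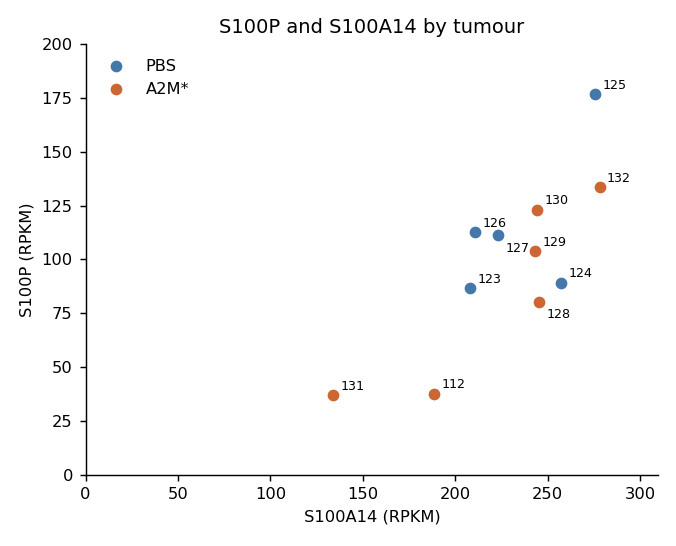
RPKM of S100P (y axis) against RPKM of S100A14 (x axis) in each of 5 PBS tumours (blue) and 6 A2M* tumours (orange), labelled by tumour number. A2M-131 and A2M-112 are low for both genes, and PBS-125 and A2M-132 are high for both.

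The genes most like S100P over the 11 tumours, by the same measure among 14964 genes, were CYSTM1 (Pearson's r 0.95), RPL31 (0.95), ZFAS1 (0.94), APPL2 (0.94) and PGPEP1 (0.94). For S100A9 they were NABP2 (0.96), LINC01003 (0.94), NHP2L1 (0.93), AP1M2 (0.93) and TOM1 (0.92). For S100A8 they were COQ6 (0.94), LINC01179 (0.90), METTL1 (0.89), HIPK1-AS1 (0.86) and FADS6 (0.86). These are the highest values out of many genes over few tumours and are given as a description. No member of the family was among them.

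Of the other 11 S100 genes in the tables, 4 were at 1 RPKM or more and 7 below. S100A13, which takes part in the export of growth factors that lack a signal peptide, was at 85.4 RPKM, close to S100P. S100A3 was at 14.6 RPKM, which like S100A13 is above the member S100A8, S100A1 at 7.37 RPKM and S100A5 at 2.85 RPKM. The remaining 7 were near or at 0, namely S100A12 (0 to 9 counts), S100B (at most 2 counts), S100A7, S100A7A and S100Z (at most 1 count each) and S100A7L2 and S100G (0 counts in all tumours). S100A12, a granulocyte gene, lies between S100A9 and S100A8 on chromosome 1. None of the 4 tested genes passed the test, and the log2 fold change farthest from 0 was that of S100A3, 0.27 (SE 0.18; edgeR, Benjamini-Hochberg adjusted p = 0.806). Exons of S100A1 and S100A13 overlap on opposite strands, so their reads cannot be fully told apart.

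**Figure D5:**
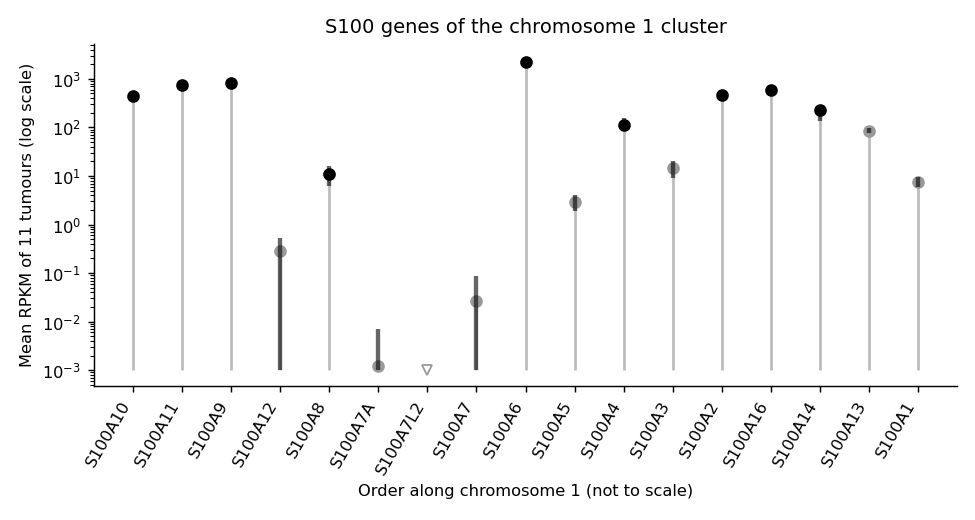
Mean RPKM over the 11 tumours on a log scale (y axis) of the S100 genes on chromosome 1 in their order along it (x axis, not to scale), with members in black, other S100 genes in grey and the range over tumours as dark bars cut at the lower limit of 0.001 RPKM. S100A12 at 0.286 RPKM lies between S100A9 and S100A8, and the open triangle is S100A7L2, with no counts.

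Among the 7 receptors of secreted S100 proteins, AGER, TLR4 and CD36 were below 1 RPKM. AGER was at 0.983 RPKM (190 to 546 counts) and TLR4 at 0.09 RPKM (3 to 27 counts), and CD36 was at 0.18 RPKM. For AGER the low RPKM did not go with few reads. Its mean was 12.91 CPM in PBS and 12.35 CPM in A2M* tumours, above that of the member S100A8 (6.231 and 5.198 CPM). RPKM also divides by exon length, and whether the length used suits AGER was not tested. BSG (basigin), a receptor for S100A9, was at 177.5 RPKM, ALCAM at 74.3 RPKM, NPTN (neuroplastin), a receptor for S100A8, at 57.4 RPKM and MCAM at 23.1 RPKM. None of the 7 reached an unadjusted p of 0.05. Their log2 fold changes were above 0 for 4 and below 0 for 3, with a median of 0.06.

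Of the 8 intracellular partners none passed the adjusted threshold either, and 2 reached an unadjusted p of 0.05 in edgeR (1 higher and 1 lower in A2M*), where 3.55% and 3.53% of all genes did. CACYBP, the calcyclin-binding protein, was at 10.9 ± 1.04 RPKM (SD, n = 5) in PBS and 14.7 ± 2.23 RPKM (SD, n = 6) in A2M* tumours. Its log2 fold change was 0.38 (SE 0.10; edgeR, unadjusted p = 0.00161, Benjamini-Hochberg adjusted p = 0.599), while that of S100A6 was -0.06. AHNAK, a scaffold that binds S100A10 with annexin A2, was at 98.1 ± 14.6 RPKM (SD, n = 5) in PBS and 86.3 ± 5.62 RPKM (SD, n = 6) in A2M* tumours, a log2 fold change of -0.23 (SE 0.10; edgeR, unadjusted p = 0.0422, Benjamini-Hochberg adjusted p = 0.698). The other 6 were ANXA2, ANXA1 (185.9 RPKM), EZR (140.9 RPKM), MYH9 (140.8 RPKM), ANXA11 (86.4 RPKM) and IQGAP1 (33.3 RPKM). Their log2 fold changes lay between -0.15 (EZR) and 0.01 (ANXA1), and the median of the list was -0.09.

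The tables carried 16958533 to 35874381 counts per tumour (PBS 26042224 to 35874381, A2M* 16958533 to 33223999), so that 3 counts equal 0.0836 to 0.177 RPM. The cell line showed in its markers. KRT19 (394.4 RPKM), KRT18 (316.4 RPKM), KRT8 (244.6 RPKM), EPCAM (166.1 RPKM) and CDH1 (79.6 RPKM) summed to 1084 to 1372 RPKM in PBS and 895.6 to 1370 RPKM in A2M* tumours. Of the prostate markers, KLK3 had no count in any tumour and KLK2 at most 1.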

How the data were processed

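RNA of 11 PC-3 tumours, 1 library each, was sequenced as single reads from Illumina TruSeq v2 libraries. The authors sorted reads into human and mouse, mapped the human reads to hg19 with TopHat2 and counted them per gene with featureCounts. The strand setting and the versions of these tools are not given in the sources used here. They deposited the counts as whole, unnormalised numbers. Their deposited RPM is the count over the tumour's total, within 4.99e-07 of the count per 1000000. For RPKM the authors also divided by exon length, and all 15457 genes checked (at least 10 counts in every tumour) had 1 length within 0.1%. RPKM is not adjusted for composition, while CPM here carries TMM factors.

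Counts of all genes were filtered with filterByExpr, scaled by TMM and fitted in edgeR 4.0.16 (R 4.3.3; glmQLFit and the quasi-likelihood F test; threshold 0.01 on the Benjamini-Hochberg adjusted p over 16630 genes), without covariates. The SE is the size of the log2 fold change over the square root of F. The same code was tested on simulated counts in which 200 genes differed. Log2 CPM used a prior count of 2. Groups followed the labels. Ratios were compared by exact permutation. Alternatives were RLE factors, library size only, no filter, at least 10 counts in every tumour, DESeq2 1.42.0, edgeR's likelihood ratio test, limma-voom (limma 3.58.1), other thresholds, a pseudocount of 0.1 and group medians for the ratios, and each tumour left out in turn.

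Named were all members, the listed S100 genes, receptors and partners (values at 1 RPKM or more, and any other by count), marker lists by sums, and the 5 genes most like S100P, S100A8 and S100A9 by Pearson correlation of group-centred log2 CPM among genes with a mean of at least 0. AGER, TLR4, CD36 and the pairs of members other than S100A8 with S100A9 were named after their values were seen. Members and lists were chosen with earlier results of these data known. Positions are from GENCODE mapped to GRCh37 and promoters from RefSeq on GRCh38.p14; coordinates were not converted. Shared runs of 50 bases were sought in GENCODE transcripts. Plots used matplotlib 3.10.9 (Python 3.11.15). Counting errors cover counting only. The values of 1 marker gene are not reported here.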

Additional observations from a re-analysis of the deposited data

Results flagged for a closer look

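In 26 groups of values, one for each treatment group of the 10 members and of other measures described above, the highest and the lowest tumour were set against the rest by Dixon's test, where chance alone gives about 1.3 groups. In 1 group a tumour stood apart: S100P in PBS-125 had 93.64 CPM, against 43.66 to 57.76 CPM in the other 4 PBS tumours, a gap of 0.718 of the group's range. Without that tumour the log2 fold change of S100P was -0.26 in place of -0.48.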

How the results depend on the processing

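Members past the threshold were 0 under every alternative. Of all genes, 0 passed in edgeR (unadjusted p under 0.05 in 1178), also with the adjusted threshold at 0.05, while 1 passed in DESeq2 and 1 in edgeR's likelihood ratio test. Both tools gave 241 genes, 0 of them members, an unadjusted p up to 0.01. In the 11 fits with a tumour left out 0 genes passed, with 682 to 1684 at an unadjusted p under 0.05. Of 180 alternative log2 fold changes of members 174 kept their direction and 6 turned, all of S100A11, which lay at 0.004 (-0.001 without a filter; -0.0314 to 0.0367 with a tumour left out, below 0 without PBS-123, PBS-126, A2M-128, A2M-129 or A2M-112). With a tumour left out, S100A6 ranged from -0.128 (without PBS-127) to -0.0071 (without A2M-131), S100A10 from -0.103 (without PBS-126) to -0.0068 (without PBS-124) and S100A16 from -0.14 (without PBS-127) to -0.0354 (without PBS-124). The smallest adjusted p of a member was 0.725 with all tumours kept and 0.454 with a tumour left out, both in S100A9. The difference of the S100A8 to S100A9 ratio was 0.0483 by group medians (exact permutation test, p = 0.686) and -0.155 to 0.0543 with a tumour left out, above 0 without PBS-123 or A2M-129; that of S100A10 to ANXA2 was -0.031 by medians (exact permutation test, p = 0.948) and 0.0099 to 0.0792. The cause of these turns was not tested. No paired analysis was possible because the groups share no tumour numbers. S100A8, with 54 to 253 counts, is the member whose values depth limits most.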

Other observations

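The epidermal genes that fuse an S100 domain to a repeat protein were near 0 in these tumours. Of 7 such genes FLG, FLG2 and HRNR passed the filter, with means of 0.207, 0.222 and 0.0564 RPKM. The list summed to 0.364 to 0.56 RPKM in PBS and 0.444 to 0.732 RPKM in A2M* tumours, and none of the 3 reached an unadjusted p of 0.05 in edgeR. The epidermis markers summed to 10.3 to 14.1 RPKM in PBS and 9.79 to 13.99 RPKM in A2M* tumours, most of it KRT10 (11.3 RPKM).

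Human-assigned reads of stroma and vessel markers summed to 57.7 to 116.5 RPKM in PBS and 58.2 to 159.9 RPKM in A2M* tumours, most of it COL1A1 (88.97 RPKM). COL3A1 (5.38 RPKM) and PECAM1 (3.93 RPKM) followed, and the rest were under 1 RPKM. Of these, DCN had 0 to 3 counts, LUM 2 to 5 and CDH5 2 to 17. Of the 8 markers 5 were tested, and none passed the adjusted threshold. COL1A2 (higher in A2M*) and VWF (lower) reached an unadjusted p of 0.05 in edgeR, as did 7.08% of all genes. Both were low, COL1A2 at 0.53 RPKM (38 to 170 counts) and VWF at 0.0923 RPKM (11 to 33 counts). COL1A1, COL3A1 and PECAM1 did not reach it (edgeR, unadjusted p = 0.206, 0.507 and 0.939).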
